A study of Mus musculus with 8 samples.

Results

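Cebpa, Cebpb, Cebpd, Cebpe, Gfi1, Spi1, Irf8, Klf4 and Runx1 encode transcription factors that direct blood progenitors towards granulocytes and monocytes. Every array probe whose RefSeq transcript belongs to 1 of these 9 genes was taken, which gave 10 of the 55681 non-control probes and 9 of the 20145 gene symbols on the array. Runx1 had 2 probes and each other gene 1, and all 10 probes passed the filter on dim probes, which kept 39098. The groups were GMP and LSK of ACKR1-deficient (KO) mice, and GMP and LSK of their wild-type littermates, with 2 arrays per group. All mice were females of 12 weeks from a heterozygous breeding colony whose deficient allele had been backcrossed onto C57Bl/6J over more than 12 generations. GMP, the granulocyte-macrophage progenitors, had been sorted from flushed bone marrow as cells negative for lineage markers and Sca1 and positive for cKit, CD34 and CD16/32. LSK, which hold the stem cells and multipotent progenitors, were negative for lineage markers and positive for Sca1 and cKit. ACKR1 is an atypical chemokine receptor that binds chemokines without signalling through G proteins.

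As background, RUNX1 acts early and is required for blood stem cells to form. PU.1, encoded by Spi1, and C/EBPα, encoded by Cebpa, are required for granulocyte-monocyte progenitors. IRF8 and KLF4 then favour the monocyte side, while GFI1 and C/EBPε favour the granulocyte side, where C/EBPε is needed for secondary granules. C/EBPβ drives granulocyte production under stress, and C/EBPδ is a further member of the same leucine zipper family.

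Levels below are log2 processed signal minus the 75th percentile of the same array, so a level of 0 equals that percentile. Levels of different probes are not compared with each other. Differences were tested with limma across 28088 features, and a gene was called when its Benjamini-Hochberg adjusted p was under 0.05. Whether the 2 arrays of a group came from separate animals is not stated in the labels. The p-values thus reflect the spread among these arrays, part of which may be technical, and the small number of arrays limits the precision. In sorted populations, fewer cells of a type and less RNA per cell cannot be told apart. All arrays were on 1 slide. The first position number in the barcode was 1 for the deficient arrays and 2 for the others, so this position and genotype cannot be told apart either.

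Deficient LSK replicate 2 was weak, with 34.3% of spots well above background against 62.5% to 73.1% on the other 7 arrays, and its correlation with its own replicate was 0.780. Deficient GMP replicate 1 correlated with its own replicate at 0.898, against 0.976 between the wild-type GMP arrays. Ackr1, the disrupted gene, measured −0.07 and −0.16 in deficient GMP, against −0.50 and −0.45 in wild-type GMP. It measured −0.70 and −0.85 in deficient LSK, against −0.66 and −1.05 in wild-type LSK. It was not called in GMP (adjusted p = 1.00) or in LSK (adjusted p = 0.954), and since the labels do not place its probe relative to the deleted part, it checks nothing about the genotypes. The sorted populations were checked against their markers in wild-type mice. Of 7 granulocyte-monocyte progenitor markers, 3 were called higher in GMP than in LSK (Elane, Ms4a3 and Fcgr3), and the stem and progenitor markers Procr, Slamf1, Flt3 and Hlf were called lower. In deficient mice, none of either list was called between GMP and LSK (0 of 7 and 0 of 9 by limma, with 5 and 4 at an unadjusted p under 0.05). That comparison called no feature at all (0 of 28088), and 16.7% of features had an unadjusted p under 0.05. All 7 granulocyte-monocyte progenitor markers had differences above 0 there, and 5 of the 9 stem and progenitor markers had differences below 0.

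The first question was how the factors differed between deficient and wild-type LSK. Cebpe, the granulocyte factor of the C/EBP family, was higher in deficient LSK, and no other factor was called. Cebpe measured 3.52 and 3.94 in deficient LSK, against −1.40 and −1.03 in wild-type LSK. Each deficient value exceeded each wild-type value, and the arrays within a genotype differed far less than the genotypes did. The difference was 4.94 (SE 0.629, 95% interval 3.53 to 6.35), which is 30.7-fold (limma, adjusted p = 0.0161, n = 2 arrays per group). Cebpe ranked at 28 among all features by p and was the 1 factor with an unadjusted p under 0.05, beside 8.83% of features.

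With 1 of the 9 factors called, the count stood beside 67 of 28088 features called in deficient LSK, all of them higher, a share of 0.239%. The difference was 4.75 without wild-type LSK replicate 1, 5.13 without wild-type LSK replicate 2, and 4.73 without the weak deficient LSK replicate 2. The call was lost in each of these fits, which leave 1 array in a group and also called fewer features in all. It was kept without deficient LSK replicate 1, where the difference was 5.15 and the weak array stood alone for deficient LSK. With median scaling the call was lost (4.37, adjusted p = 0.0981), in a fit that called 2 features in all. Without the filter on dim probes it was lost as well (adjusted p = 0.0730), with 6 of 37208 features called. When only the 4 LSK arrays were fitted it was lost too (adjusted p = 0.0504), with 57 features called. Without both arrays that stood apart (chosen once the data had been seen), the adjusted p was 0.0596. The direction was the same in each of these fits. With the replicate block the adjusted p was 0.000155 (limma), in a fit that called 479 of 28088 features, against 67.

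**Figure D1:**
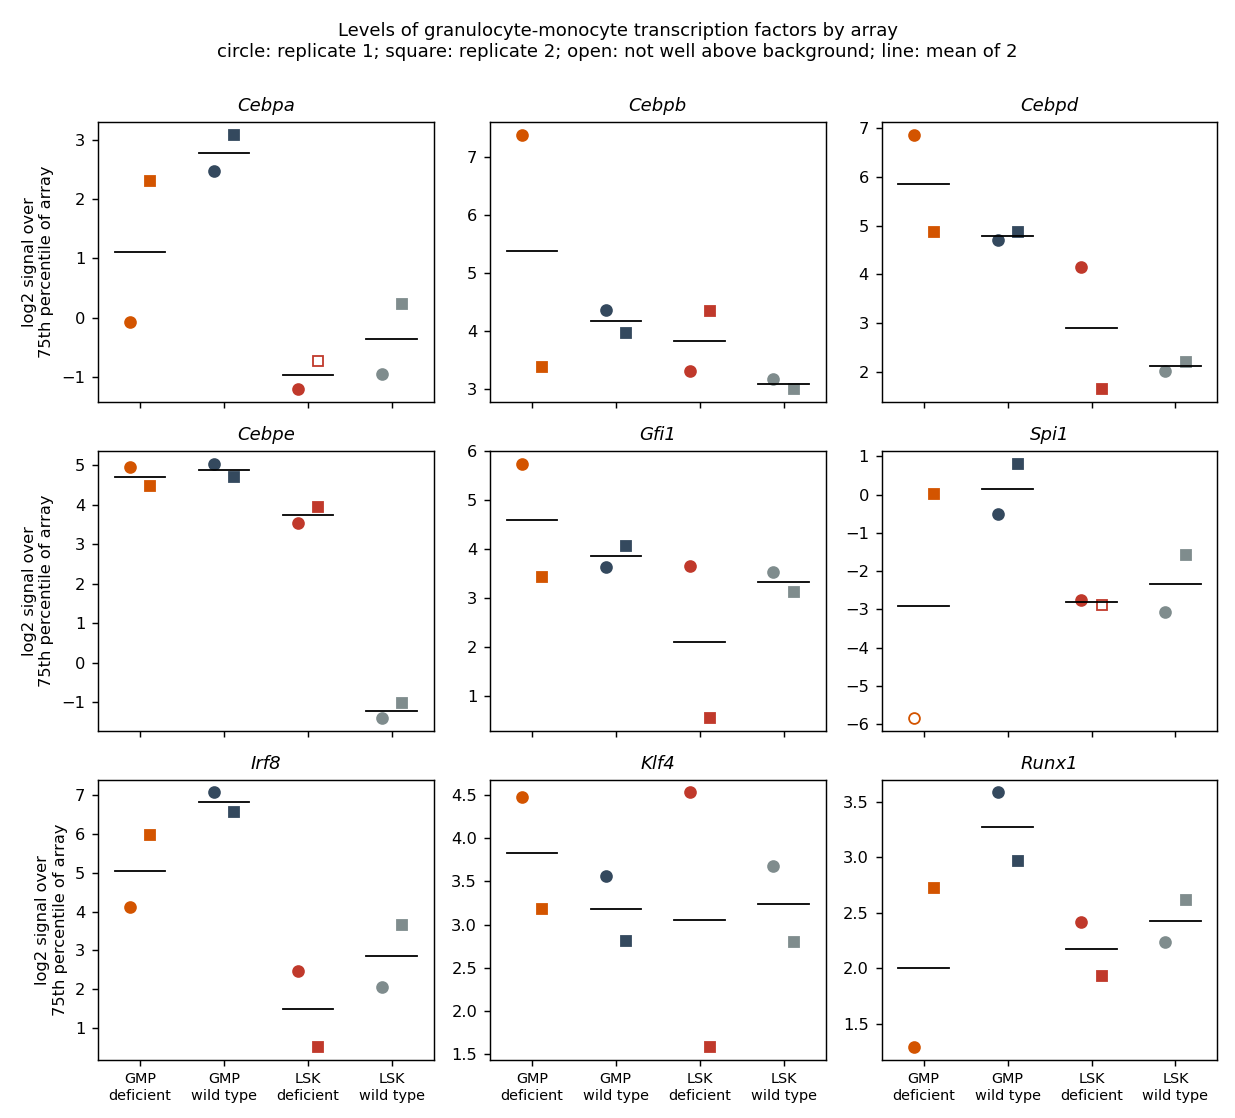
Level of each factor on the 8 arrays, in log2 units relative to that array's 75th percentile (vertical axis, with its own scale for each gene), for deficient and wild-type GMP and deficient and wild-type LSK; circles and squares are replicates 1 and 2, open symbols were not well above background and lines are means of 2. Cebpe lies at 3.52 and 3.94 in deficient LSK and below 0 only in wild-type LSK. Cebpa, Cebpb, Cebpd, Gfi1 and Spi1 have widely spaced arrays in deficient GMP.

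The other C/EBP genes were not called in LSK. Cebpa was dim, at −1.21 and −0.74 in deficient LSK, against −0.96 and 0.23 in wild-type LSK, and it was not well above background on deficient replicate 2. Cebpb was higher on both deficient arrays, at 3.31 and 4.35 in deficient LSK, against 3.18 and 3.004 in wild-type LSK. Its difference of 0.74 (SE 1.12) was within the error of the fit (limma, adjusted p = 0.758) and became −0.052 with normexp background correction. Cebpd was split in deficient LSK, at 4.14 and 1.65, against 2.03 and 2.21 in wild-type LSK. Cebpb and Cebpe were thus the 2 factors whose deficient arrays lay wholly above the wild-type arrays in LSK, and none lay wholly below. Over all features, 16.4% lay wholly above and 21.1% wholly below.

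The remaining factors overlapped between genotypes in LSK. Gfi1, a repressor of the monocyte programme, measured 3.66 and 0.54 in deficient LSK, against 3.54 and 3.12 in wild-type LSK. Irf8 measured 2.47 and 0.50 in deficient LSK, against 2.04 and 3.66 in wild-type LSK. Klf4 measured 4.53 and 1.58 in deficient LSK, against 3.68 and 2.80 in wild-type LSK. For these 3 genes, the lower deficient value belonged to the weak replicate 2 array. Their differences were −1.23 for Gfi1, −1.36 for Irf8 and −0.19 for Klf4, and without that array 0.33 for Gfi1, −0.38 for Irf8 and 1.29 for Klf4. Spi1 measured −2.76 and −2.88 in deficient LSK, against −3.06 and −1.59 in wild-type LSK, and was not well above background on deficient replicate 2. Runx1 measured 2.41 and 1.93 in deficient LSK, against 2.23 and 2.62 in wild-type LSK. Their differences, −0.49 (SE 1.52) for Spi1 and −0.25 (SE 0.711) for Runx1, were smaller than their errors, and turned to 0.34 for Spi1 with normexp and 0.17 for Runx1 with quantile normalization. The 9 differences in LSK had a median of −0.25, beside 0.11 over all features, and 3 were above 0.

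In GMP, the second genotype comparison, no factor was called (0 of 9 by limma, 0 at an unadjusted p under 0.05). Of 28088 features, 41 were called, all higher, a share of 0.146%, and 4.82% had an unadjusted p under 0.05. Cebpe was nearly level, at 4.95 and 4.46 in deficient GMP, against 5.04 and 4.70 in wild-type GMP. Its difference was −0.16 (SE 0.629, 95% interval −1.57 to 1.24, adjusted p = 1.00). The interval leaves out the 4.94 measured in LSK.

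Cebpa, Irf8 and Runx1 were the 3 factors whose deficient GMP arrays both lay below both wild-type GMP arrays, beside 19.5% of all features. No factor lay wholly above, beside 20.1% of features. Cebpa, a central factor of granulocyte-monocyte progenitors, measured −0.08 and 2.30 in deficient GMP, against 2.47 and 3.09 in wild-type GMP. The difference was −1.67 (SE 0.870, 95% interval −3.61 to 0.28, adjusted p = 0.955). Irf8, the interferon regulatory factor of monocytes and dendritic cells, measured 4.11 and 5.99 in deficient GMP, against 7.07 and 6.58 in wild-type GMP. The difference was −1.78 (SE 0.942, 95% interval −3.88 to 0.33, adjusted p = 0.955). Runx1 measured 1.29 and 2.72 in deficient GMP, against 3.58 and 2.97 in wild-type GMP, a difference of −1.27 (SE 0.711, 95% interval −2.86 to 0.32, adjusted p = 0.955). For all 3 the lower deficient value was on replicate 1, the deficient GMP array that stood apart. With that array left out, the differences were −0.47 for Cebpa, −0.84 for Irf8 and −0.56 for Runx1.

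The 250 bases before a transcription start of these 3 genes, from RefSeq, are shown because these genes lay on the same side in GMP. Capitals mark matches to a short list of motifs searched on both strands: the C/EBP half-site TTGCG, the RUNX site TGTGGT, the ETS site GGAAGT, the GFI1 site AAATCA and the TATA box TATAAA. Each window is written 5′ to 3′ on the strand of its gene.
Cebpa (GRCm38.p6 chr7:35119043-35119292, plus strand): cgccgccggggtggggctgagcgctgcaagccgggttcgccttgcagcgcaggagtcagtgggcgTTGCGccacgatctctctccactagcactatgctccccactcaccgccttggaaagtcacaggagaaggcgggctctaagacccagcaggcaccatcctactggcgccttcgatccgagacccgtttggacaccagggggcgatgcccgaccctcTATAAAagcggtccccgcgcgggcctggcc
Irf8 (GRCm38.p6 chr8:120736108-120736357, plus strand): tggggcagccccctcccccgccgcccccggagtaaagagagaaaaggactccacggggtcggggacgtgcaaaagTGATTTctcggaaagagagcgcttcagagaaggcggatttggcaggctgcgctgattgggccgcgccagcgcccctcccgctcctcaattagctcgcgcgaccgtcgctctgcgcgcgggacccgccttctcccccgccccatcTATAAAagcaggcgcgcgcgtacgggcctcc
Runx1 (GRCm38.p6 chr16:92826075-92826324, minus strand): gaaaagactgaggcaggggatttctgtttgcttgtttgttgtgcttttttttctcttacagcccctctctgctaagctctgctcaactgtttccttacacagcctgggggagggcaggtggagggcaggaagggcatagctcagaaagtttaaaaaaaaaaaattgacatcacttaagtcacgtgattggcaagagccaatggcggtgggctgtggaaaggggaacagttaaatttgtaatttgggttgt
The Cebpa window held the C/EBP half-site 185 to 181 bases before the start and the TATA box 30 to 25 bases before it. The Irf8 window held the GFI1 site on its reverse strand, 175 to 170 bases before the start, and the TATA box 31 to 26 bases before it. None of the listed letters occurred in the Runx1 window, nor in a further Runx1 window. A further Irf8 window held the GFI1 site on its reverse strand, 226 to 221 bases before its start. Of 32851 windows of the same length, 14.5% held the C/EBP half-site, 12.4% the GFI1 site and 12.4% the TATA box, with 14% for the RUNX site and 19.7% for the ETS site. No marked match overlapped another motif. Windows were found for 6 of the 9 genes, and those of Cebpb, Gfi1 and Klf4 held none of the 5 motifs. The windows shown were rich in G and C for Cebpa (66.4%) and Irf8 (67.2%) and less so for Runx1 (45.6%), beside a median of 52.4% over all windows.

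Cebpb, Cebpd, Gfi1 and Klf4 had their highest GMP value on deficient replicate 1, while Spi1 had its lowest there. Cebpb measured 7.39 and 3.39 in deficient GMP, against 4.37 and 3.98 in wild-type GMP. Cebpd measured 6.87 and 4.86 in deficient GMP, against 4.71 and 4.87 in wild-type GMP. In both genes the wild-type arrays lay between or beside the widely spaced deficient arrays. Gfi1 measured 5.75 and 3.43 in deficient GMP, against 3.64 and 4.07 in wild-type GMP. Klf4 measured 4.47 and 3.18 in deficient GMP, against 3.56 and 2.81 in wild-type GMP. The 2 arrays of deficient GMP thus fell on either side of, or overlapped, the wild-type values for these 4 genes.

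Spi1, which encodes PU.1, measured −5.84 and 0.01 in deficient GMP, against −0.51 and 0.81 in wild-type GMP. On deficient replicate 1 it was not well above background, and deficient replicate 2 lay between the wild-type arrays. The difference of −3.07 (SE 1.52, limma, adjusted p = 0.955) was −0.14 without deficient replicate 1. That of Cebpb was 1.22 (SE 1.12, adjusted p = 0.958), and −0.78 without the same array. Over the 9 factors the median difference in GMP was −0.16, beside 0.16 over all features.

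**Figure D2:**
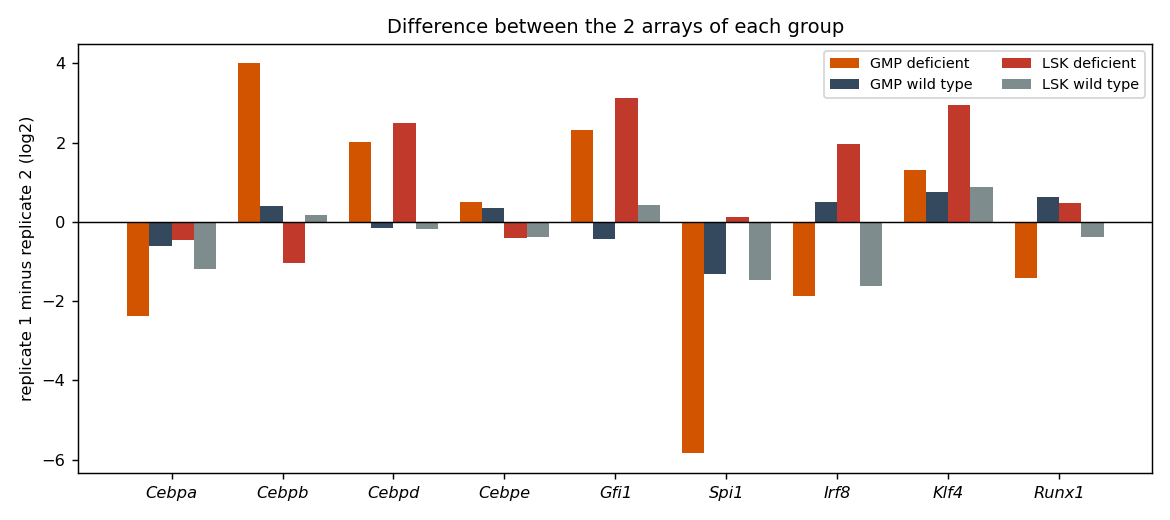
Replicate 1 minus replicate 2 (log2, vertical axis) for each factor in deficient GMP, wild-type GMP, deficient LSK and wild-type LSK. In deficient GMP the bars reach 3.997 for Cebpb and −5.85 for Spi1 (replicate 1 not well above background), whereas the 4 bars of Cebpe lie between −0.41 and 0.49.

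The spread between replicates therefore differed among the factors. In deficient GMP, replicate 1 minus replicate 2 was −5.85 for Spi1, whose replicate 1 value was not well above background and sets no exact size, and 3.997 for Cebpb, larger in size than that of 99.0% of features. The corresponding differences were 2.33 for Gfi1, 2.01 for Cebpd and −2.39 for Cebpa. The median size over all features was 0.925 in deficient GMP, against 0.322 in wild-type GMP, and 1.29 in deficient LSK, against 0.5999 in wild-type LSK. Gfi1 (3.12), Klf4 (2.94) and Cebpd (2.49) were the factors farthest apart in deficient LSK. Cebpe was close in all 4 groups, at −0.41 in deficient LSK, −0.37 in wild-type LSK, 0.49 in deficient GMP and 0.34 in wild-type GMP.

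The genotype difference of each population was then set against that of the other. For Cebpe, the difference in GMP minus that in LSK was −5.10 (SE 0.890, 95% interval −7.09 to −3.11). Its unadjusted p was 0.000208, at rank 8 of 28088, and its adjusted p was 0.650 (limma), so it was not called. No feature was called in this comparison (0%), and 2.47% had an unadjusted p under 0.05, among the factors Cebpe alone. Averaged over both populations, no factor was called either (0 of 9), beside 169 of 28088 features, a share of 0.602%, and 2 had an unadjusted p under 0.05 (Cebpe and Irf8), beside 12.2%. The averaged difference of Cebpe was 2.39 (SE 0.445, adjusted p = 0.0560), called with the replicate block (adjusted p = 0.0283), with the mean over probes of a gene (adjusted p = 0.0433) and when deficient LSK replicate 1 was dropped (2.49, adjusted p = 0.0496). That of Irf8 was −1.57 (SE 0.666, unadjusted p = 0.0408, adjusted p = 0.397), with the difference below 0 in each population.

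**Figure D3:**
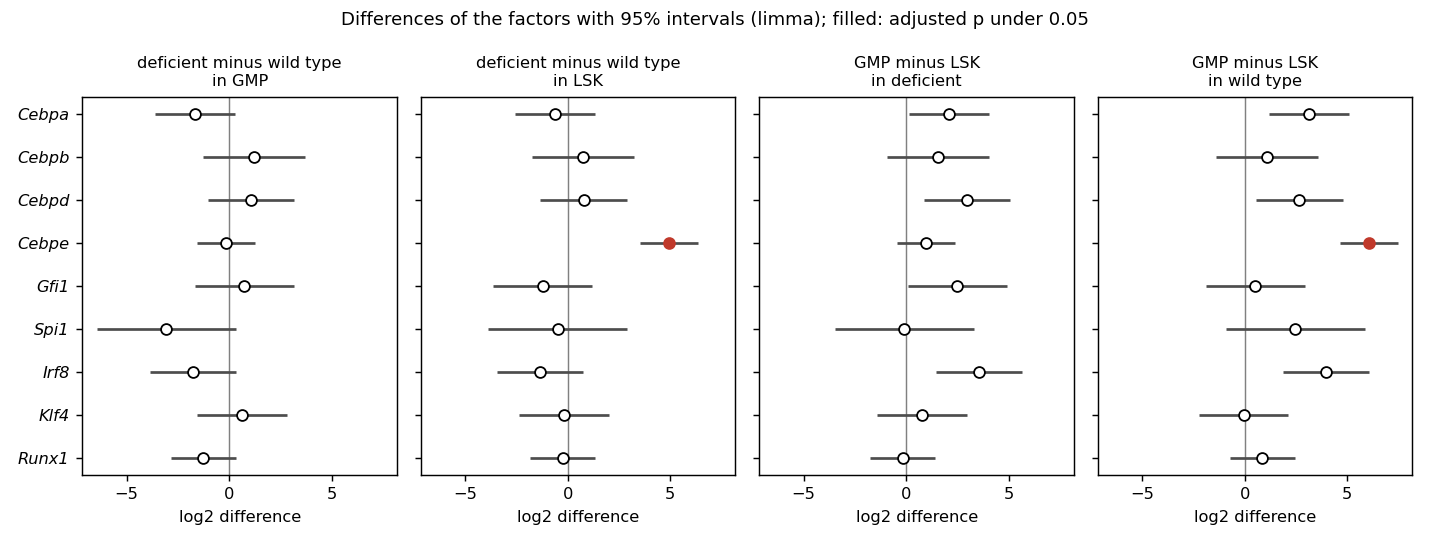
Log2 difference of each factor with its 95% interval from limma (horizontal axis), for deficient minus wild type in GMP and in LSK and for GMP minus LSK in deficient and in wild-type mice; filled points passed an adjusted p under 0.05. Cebpe is filled in LSK at 4.94 and between wild-type populations at 6.08, and all other intervals between genotypes include 0.

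GMP were then compared with LSK within each genotype. In wild-type mice, 8 of the 9 factors were higher on both GMP arrays than on both LSK arrays, beside 28.3% of features, and Klf4 overlapped. Cebpe, at 5.04 and 4.70 in wild-type GMP, against −1.40 and −1.03 in wild-type LSK, was called higher by 6.08 (SE 0.629, adjusted p = 0.00353), which is 67.6-fold. That was 1 of 9 factors called, beside 1.86% of features called in either direction and 0.502% called higher. At an unadjusted p under 0.05, 4 factors passed (Cebpa, Cebpd, Cebpe and Irf8), beside 8.4% of features. Without wild-type LSK replicate 1 the difference was 5.89 and its adjusted p 0.0507. Irf8 measured 7.07 and 6.58 in wild-type GMP, against 2.04 and 3.66 in wild-type LSK, a difference of 3.98 (SE 0.942, adjusted p = 0.0811), with an adjusted p of 0.0292 when only the wild-type arrays were fitted, which called 1337 features in all, against 522. Cebpa differed by 3.14 (SE 0.870, adjusted p = 0.148) and Cebpd by 2.67 (SE 0.943, adjusted p = 0.347), and their adjusted p were 0.0377 and 0.0178 in the fit of wild-type arrays alone. Spi1 differed by 2.48 (SE 1.52, adjusted p = 0.848). Cebpb (1.08), Runx1 (0.85) and Gfi1 (0.52) differed by less than their errors or little more, and Klf4 by −0.059. The median over the 9 factors was 2.48, beside 0.011 over all features.

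In deficient mice, 4 of the 9 factors (Cebpa, Cebpd, Cebpe and Irf8) were higher on both GMP arrays than on both LSK arrays, beside 18.4% of features, and none was called (0%, 0 of 28088). At an unadjusted p under 0.05, 4 factors passed (Cebpa, Cebpd, Gfi1 and Irf8), beside 16.7% of features. Irf8 differed by 3.56 (SE 0.942, adjusted p = 0.160), Cebpd by 2.97 (SE 0.943, adjusted p = 0.196), Gfi1 by 2.49 (SE 1.08, adjusted p = 0.284) and Cebpa by 2.08 (SE 0.870, adjusted p = 0.273). Without deficient LSK replicate 1, Cebpd (4.21, adjusted p = 0.0341), Gfi1 (4.05, adjusted p = 0.0405) and Irf8 (4.55, adjusted p = 0.0361) were called, in a fit that called 4258 of 28088 features and left the weak array alone for deficient LSK. With arrays left out, the lowest differences were 0.72 for Cebpd, −0.23 for Gfi1, 2.58 for Irf8 and 0.89 for Cebpa. Cebpe differed by 0.97 (SE 0.629, 95% interval −0.43 to 2.38, adjusted p = 0.453), which was −0.058 with quantile normalization, against 6.08 between the wild-type populations. These values share arrays with the genotype comparisons above. The median over the factors was 1.56, beside −0.069 over all features.

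The order of the 4 group means differed among the factors. Cebpe averaged 4.70 (SD 0.349) in deficient GMP, 4.87 (SD 0.240) in wild-type GMP, 3.73 (SD 0.291) in deficient LSK, and in wild-type LSK its mean was −1.21 (SD 0.264). Its upper neighbours, wild-type and deficient GMP, did not differ beyond their spread, and the gap to wild-type LSK was several times the spread. Irf8 averaged 5.05 (SD 1.32) in deficient GMP, 6.83 (SD 0.352) in wild-type GMP, 1.49 (SD 1.39) in deficient LSK, and in wild-type LSK its mean was 2.85 (SD 1.14). Cebpa averaged 1.11 (SD 1.69), 2.78 (SD 0.436), −0.97 (SD 0.333) and −0.36 (SD 0.842) in the same groups. For Irf8 and Cebpa, wild-type GMP stood highest and the 2 LSK groups overlapped. Runx1, the factor of stem cell formation, had the narrowest range over the 8 arrays, 2.29. Among the factors well above background on all 8 arrays, Irf8 had the widest, 6.57.

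Runx1 was measured by a second probe, on transcript NM_009821, while the tested probe lies on NM_001111022. The second probe read 0.02 and 1.20 in deficient GMP, against 1.45 and 1.47 in wild-type GMP. It read 0.42 and −1.22 in deficient LSK, against 0.34 and 1.15 in wild-type LSK, and was not well above background on deficient LSK replicate 2. Both probes were thus lower on both deficient GMP arrays than on both wild-type GMP arrays. The second probe differed by −0.85 in GMP (SE 0.784, limma over 39098 probes, adjusted p = 0.963) and by −1.14 in LSK (SE 0.784, adjusted p = 0.610). In deficient mice, GMP minus LSK was 1.01 at the second probe and −0.17 at the tested probe, so the probes disagreed in sign there, although the tested probe turned to 0.24 with normexp and 0.44 with median scaling.

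Markers of other cell types differed between genotypes on the same arrays, in LSK as in GMP. The summed signal of 10 mature neutrophil markers, relative to the 75th percentile, was 1318 and 3252 in deficient LSK, against 2.22 and 9.69 in wild-type LSK. It was 3326 and 1213 in deficient GMP, against 5.10 and 13.7 in wild-type GMP. Of these markers 8 were called higher in deficient LSK and 6 in deficient GMP, and all 10 differences were above 0 in each. On the wild-type LSK arrays, 5 and 1 of them were not well above background, among them Mmp8 on both. Deficient LSK replicate 1 had all 10 markers above background, and replicate 2 had all except Il1b. The summed signal of 10 erythroid markers was 1526 and 8432 in deficient LSK, against 8.12 and 53.9 in wild-type LSK, and 3005 and 1541 in deficient GMP, against 4.94 and 11.7 in wild-type GMP, with 5 called higher in LSK and 6 in GMP. Epb42 did not stand well above background on the wild-type LSK arrays. The summed signal of 9 stem and progenitor markers was 187 and 141 in deficient LSK, against 280 and 349 in wild-type LSK, with 7 of 9 differences below 0, a median of −1.16 and none called (0 by limma, 1 at an unadjusted p under 0.05). The part of these cell types in the Cebpe result was not tested. The summed signal of 7 B lineage markers was 9.04 and 6.30 in deficient LSK, against 5.59 and 8.67 in wild-type LSK, and 1 of them (Ms4a1) was called higher there. In GMP it was 9.84 and 12.1 in deficient mice, against 14.2 and 11.7 in wild-type mice, with 2 called higher (Ms4a1 and Fcrla). The mean log2 level of these 7 markers, which weighs each alike, was −0.93 and −1.22 in GMP of deficient mice, against −3.13 and −3.41 in GMP of wild-type mice. In LSK it was −0.80 and −1.23 in deficient mice, against −3.07 and −2.81 in wild-type mice. Of 7 T and NK cell markers and of 7 mast cell, basophil and eosinophil markers, 0 were called between genotypes by limma in either population, with 3 of each at an unadjusted p under 0.05 in LSK.

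**Figure D4:**
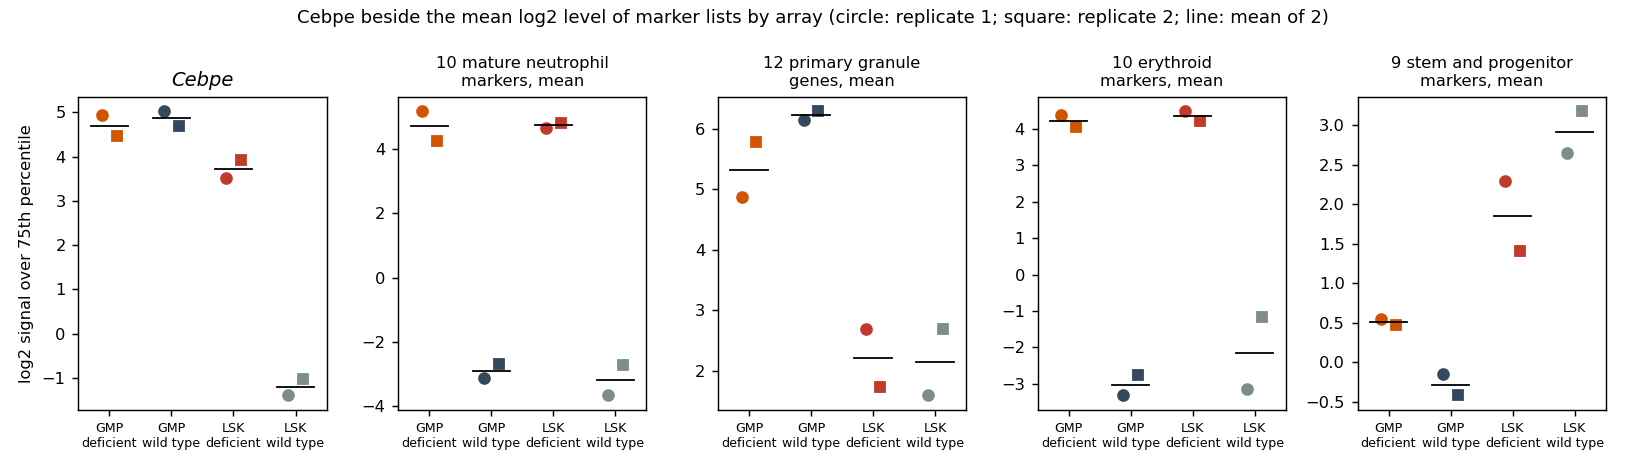
Level of Cebpe and mean log2 level of 4 gene lists on each array (vertical axes, log2 signal over the 75th percentile, each with its own scale), for deficient and wild-type GMP and deficient and wild-type LSK. Neutrophil and erythroid markers are high on all 4 deficient arrays, Cebpe is low only on the wild-type LSK arrays, and primary granule genes are high on all 4 GMP arrays.

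Further gene sets were read as lists. A list of 16 genes held secondary and tertiary granule genes, which C/EBPε is known to serve, and other neutrophil genes such as S100a9 and Padi4. Of these 16, 9 were called higher in deficient than in wild-type LSK, with a median difference of 7.48, beside 0.11 over all features. The list shares Retnlg, Mmp8, Ltf, Ngp and Camp, among others, with the mature neutrophil markers above, so its counts repeat part of theirs. Ltf, encoding lactoferrin, averaged 5.87 in deficient LSK, against −2.42 in wild-type LSK, a difference of 8.30 (adjusted p = 0.00596). In GMP, where Cebpe was not called, Ltf averaged 4.79 in deficient mice, against −4.27 in wild-type mice (adjusted p = 0.00358). In GMP, 8 of the 16 were called higher, with a median of 6.05, beside 0.16. Between the wild-type populations, where Cebpe was called higher by 6.08, 2 of the 16 were called higher in GMP (Cybb and Mmp8), with a median of 0.80, beside 0.011. The levels of this list and of Cebpe therefore did not follow the same order over the 4 groups.

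Primary granule genes and monocyte genes were called mostly between populations. Of 12 primary granule genes, 1 was called between genotypes in LSK (Fcnb, a ficolin, higher in deficient LSK with adjusted p = 0.0425, well above background on 1 of the 2 deficient LSK arrays and on neither wild-type one) and none in GMP (0, with 1 at an unadjusted p under 0.05). At an unadjusted p under 0.05 (limma), 3 of the 12 were higher and 2 lower in deficient LSK, beside 8.83% of features. The median difference there was −0.31, beside 0.11 over all features. Between the wild-type populations 4 of the 12 were called higher in GMP (Elane, Ms4a3, Ctsg and Fcnb), with a median of 3.36, beside 0.011. Elane, the neutrophil elastase gene, averaged 8.59 in wild-type GMP, against 1.59 in wild-type LSK. Of 18 monocyte and dendritic genes, 17 were tested. None of them was called between genotypes in LSK (0, with 4 at an unadjusted p under 0.05) or in GMP (0, with 2), and 6 were called higher in wild-type GMP than in wild-type LSK, led by Cd14, F13a1, Cx3cr1, Ccr2 and Csf1r. Of 9 growth factor receptor genes, none was called between genotypes in LSK or GMP (0 each, with 0 at an unadjusted p under 0.05). Csf1r, the receptor of monocyte growth, was called higher in wild-type GMP by 3.502 (adjusted p = 0.0431), and Flt3, a receptor of multipotent and dendritic progenitors, was called lower by 5.99, at −0.84 in wild-type GMP, against 5.15 in wild-type LSK.

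Partner and related factors of the 9 genes showed few calls. Of 30 listed, 29 were tested, and none was called between genotypes in LSK (0, with 2 at an unadjusted p under 0.05) or in GMP (0, with 4). Their median difference was −0.50 in LSK, beside 0.11 over all features, and 0.67 in GMP, beside 0.16. Averaged over both populations, 1 was called, Spib, the closest relative of Spi1, known from B cells and plasmacytoid dendritic cells. Spib averaged −0.70 in deficient LSK, against −5.42 in wild-type LSK, and −1.42 in deficient GMP, against −5.17 in wild-type GMP, an averaged difference of 4.23 (SE 0.579, adjusted p = 0.0112). It was well above background on both arrays of deficient GMP but on 1 of 2 in each other group, so the size of its difference is uncertain. Between the wild-type populations, 2 were called lower in GMP. Irf4, the relative of Irf8, was at least 8.06-fold lower and did not stand well above background on the wild-type GMP arrays. Meis1, a stem cell homeobox factor, averaged 1.54 in wild-type GMP, against 5.70 in wild-type LSK (adjusted p = 0.0425).

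For each factor, the genes of most like pattern were those with the smallest root mean square difference of levels, each centred on its own mean over the 8 arrays. For Cebpe these were C3 (0.301 on the log2 scale) and Gm9733 (0.446), beside a standard deviation of Cebpe over the arrays of 2.66. C3, the complement component, measured 4.71 and 4.43 in deficient LSK, against −1.35 and −0.46 in wild-type LSK, and 5.74 and 5.13 in deficient GMP, against 5.66 and 5.47 in wild-type GMP. For Irf8 they were Cst7 (0.338) and Ctsz (0.475), for Cebpa Tmem97 (0.225) and Gstm4 (0.331), and for Spi1 Cenpm (0.382) and Nbas (0.469). For Cebpb they were Cysltr1 (0.276) and Plaa (0.322), for Cebpd Dhx40 (0.363) and Svip (0.463), and for Gfi1 Mccc1 (0.191) and Snx1 (0.233). For Klf4 they were Rtel1 (0.210) and Atg16l2 (0.249), and for Runx1 Tmem234 (0.143) and Hmmr (0.155), both beside narrow spreads of the factors themselves (0.966 for Klf4 and 0.688 for Runx1). Several of these genes had their extreme values on the arrays that stood apart. On deficient GMP replicate 1, where Spi1 was not well above background, Cenpm (−5.15) and Nbas (−5.79) were lowest. Cysltr1 (2.06), Plaa (4.91), Mccc1 (3.47) and Snx1 (6.86) were highest there. Mccc1 (−1.80) and Snx1 (1.85) were lowest on the weak deficient LSK replicate 2. Whether like patterns reflect shared regulation was not tested.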

How the data were processed

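RNA of sorted LSK and GMP was labelled with Cy3 and read on 8 one-colour Agilent arrays, per the labels' protocols. The deposited scanner files hold the authors' processed signal of each spot, a background-corrected intensity on a linear scale made with Agilent Feature Extraction 10.7.3.1, per the file headers, on a design annotated to mm9. The authors' deposited table holds log2 values, which correlated at 0.99967 to 0.99996 with scanner values centred on each probe's median; its column medians were 0.31 and −0.11 in deficient GMP, −0.13 and −0.13 in wild-type GMP, 0.041 and 1.24 in deficient LSK, and 0.12 and −0.26 in wild-type LSK. Any further step is not given in the sources used here.

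From each log2 processed signal, the 75th percentile of its array was subtracted. Control and outlier spots were left out, saturation was absent (0 spots on each array), and spots of a probe were averaged. A probe was kept if both arrays of some group showed it well above background. Accessions were named through a RefSeq table of GRCm38.p6, used for names and promoter windows (26582 probes named). The brightest probe stood for a gene, and 15856 of the 28088 features had a symbol. Tests used limma 3.58.1 in R 4.3.3 (4 residual and 5.76 prior degrees of freedom). The fit was also run on simulated data, with independent noise and an equal spread on every array. Those data do not cover a weak array such as deficient LSK replicate 2. Where both arrays of the dimmer group lacked signal well above background, the fold is written as a lower bound, taken against the higher of that probe's value and the lowest signal well above background on each array.

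Same-numbered arrays of a population shared the second position number in the barcode (2 and 4 for GMP, 1 and 3 for LSK) and all shared 1 scan. Alternatives were normexp (on the median signal, since the files hold no mean signal, offset 50), quantile and median scaling, no filter, the deposited table, the mean over probes, the replicate block, fewer arrays and each array left out. The genes named were all 9 factors, listed genes that were called (up to 5 per list) and 2 genes of like pattern per factor. Members and lists were chosen with earlier results of these data known.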

Additional observations from a re-analysis of the deposited data

Results flagged for a closer look

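The genotype difference of Cebpe in GMP minus that in LSK was −5.10 (SE 0.890, limma, unadjusted p = 0.000208, adjusted p = 0.650). Cebpe measured 4.95 and 4.46 in deficient GMP, against 5.04 and 4.70 in wild-type GMP. In LSK it measured 3.52 and 3.94 in deficient mice, against −1.40 and −1.03 in wild-type mice. It stands here because the 2 populations differed in their genotype effect by the unadjusted test of that difference. Leaving out each array in turn gave −5.35 to −4.86.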

How the results depend on the processing

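With 2 arrays a group, and 1 deficient LSK array of weak signal, only large differences could pass, and direction was often set by 1 array. The 1 call in deficient LSK (Cebpe) became 0 with median scaling, without the filter on dim probes and with the 4 LSK arrays alone, and was 0 to 1 when arrays were left out. The averaged count of 0 became 1 (Cebpe) with the mean over probes, with the replicate block and with the block on crossed LSK numbers, and was 0 to 1 with arrays left out. In wild-type GMP against LSK, the 1 call became 2 with normexp (Cebpe and Irf8, with 330 of 28088 features called). It became 4 with the 4 wild-type arrays alone (Cebpa, Cebpd, Cebpe and Irf8, with 1337 called, against 522). Leaving out both arrays that stood apart (a choice made after seeing the data) gave the same 4 calls. Only the wild-type arrays set the spread in that fit, so it repeats the fit of wild-type arrays alone. Of the fits with 1 array left out, only that without wild-type LSK replicate 1 (5.89) lost the Cebpe call. In deficient GMP against LSK, the count of 0 became 2 with normexp (Cebpd and Irf8, with 818 features called, against 0) and was 0 to 3 with arrays left out, 3 without deficient LSK replicate 1 (4258 called). The genotype count in GMP and that of the difference between populations were 0 in every alternative run. The cause of these changes was not tested.

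Same-numbered arrays deviated together at −0.34 in LSK and 0.26 in GMP, so the numbers were not taken as pairs. Over all features the replicate block gave 905 averaged genotype calls, the crossed block 1313 and no block 169. Between populations no block was run, since the numbers apply within a population. The median of all features in LSK, 0.11, moved to 0.41 with normexp, −0.21 with quantile normalization and −0.46 with median scaling; in GMP, 0.16 moved to 0.28, 0.017 and −0.13; in deficient GMP against LSK, −0.069 moved to −0.30, 0.17 and 0.54. No called difference changed sign. Between genotypes in LSK, normexp gave −0.052 for Cebpb and 0.34 for Spi1, and quantile normalization gave 0.37 for Klf4 and 0.17 for Runx1. Between populations, median scaling gave 0.27 for Klf4 in wild type. In deficient mice normexp gave 0.21 for Spi1 and 0.24 for Runx1, quantile normalization gave −0.058 for Cebpe, 0.76 for Spi1 and −0.31 for Klf4, median scaling gave 0.51 for Spi1 and 0.44 for Runx1, and the mean over probes gave 0.42 for Runx1.

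Leaving arrays out also turned signs. Between genotypes in LSK, Cebpd then ran between −0.47 and 2.02, Gfi1 between −2.79 and 0.33, Spi1 between −1.23 and 0.24 and Klf4 between −1.66 and 1.29. In GMP, Cebpb ran between −0.78 and 3.22, Cebpe between −0.41 and 0.083, Gfi1 between −0.43 and 1.90 and Klf4 between −0.0077 and 1.29. In GMP against LSK, Klf4 ran between −0.50 and 0.38 in wild type, and in deficient mice Cebpb ran between −0.44 and 3.56, Gfi1 between −0.23 and 4.05, Spi1 between −3.02 and 2.83, Klf4 between −1.35 and 2.24 and Runx1 between −0.88 and 0.55. Over all alternatives, 600 values of single factors kept their direction and their side of the threshold, 39 changed sign, 8 lost a call and 16 gained one.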
